A study of Mus musculus with 21 samples.

Results

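Transcript levels were followed for 38 genes of glycolysis and of the hypoxia response in sorted mouse embryoid body cells. They were 17 glycolytic enzyme genes, 4 transporter genes, 4 regulators of glycolytic flux, 10 genes of the hypoxia response and the 3 genes of the hypoxia-inducible transcription factors. The genes were chosen by symbol, and each was matched to its Ensembl ID among the 55487 IDs of the count files. All 38 were found, and all 38 passed the filter on low counts in both sets of libraries. Aldoa has a second ID of the same symbol in the annotation, and the ID with the larger overlap with the RefSeq gene was used.

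Total RNA was sequenced from embryonic stem cells that had grown as embryoid bodies, the floating aggregates in which such cells differentiate, and that were collected on day 4. The cells had been sorted on the receptors FLK1 and PDGFRalpha. PDGFRalpha-FLK1+ cells are called SP here and PDGFRalpha+FLK1+ cells DP. The first set of 12 libraries came from the line T-GFP; Etv2-tdTomato, which reports the mesoderm gene T and Etv2, the ETS factor needed for blood and endothelium. It had 4 groups: SP Etv2-positive, SP Etv2-negative, DP Etv2-positive and DP Etv2-negative, sorted by tdTomato. Whether T-GFP served as a gate too is not stated. The second set of 9 libraries had 3 groups: SP cells of the line iETV2, in which doxycycline induces Etv2 (called iEtv2 SP), and SP and DP cells of the wild-type line A2lox.Cre (WT SP and WT DP). The iETV2 cells received doxycycline at 2 µg/ml from day 2.5. The labels give WT cells no doxycycline, so the line, the drug and the induced Etv2 cannot be told apart. Each of the 7 groups had 3 libraries. The labels do not say whether these came from separate cultures, so the p-values measure the spread between libraries, which may be technical.

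Glycolysis splits glucose into pyruvate. Glucose enters through the SLC2A carriers, hexokinases and phosphofructokinases commit it, and lactate dehydrogenase turns pyruvate into lactate, which leaves through the SLC16A carriers. Pyruvate dehydrogenase kinases such as PDK1 close the alternative route of pyruvate into the mitochondrion. In low oxygen the HIF alpha subunits, encoded by Hif1a and Epas1, escape hydroxylation by the EGLN enzymes, pair with ARNT and raise many of these genes. The EGLN hydroxylases, BNIP3, which targets mitochondria for removal, and DDIT4, an inhibitor of mTORC1, are known targets of the pathway. HIF alpha activity is set largely at the protein level, which transcript counts do not show.

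HIF dimers bind a short core, ACGTG or GCGTG. RefSeq promoter windows of 300 bases, from 250 before to 50 after a start, were matched to 34 of the 38 genes, with 49 windows in all (Slc2a3, Bnip3l, Ndrg1 and Epas1 were not matched). The core, searched on both strands, was in at least 1 window of 31 of the 34 genes, or 91.2%. Among all 27025 genes of the RefSeq table the share, counted in the same way, was 46.7%. Of all 32851 windows taken singly 43.8% held the core, a share of windows and not of genes. The median GC content was 63.3% in the 49 windows and 52.7% in all windows, and the shares were not matched for it or for the number of windows per gene. The list was also chosen to hold hypoxia response genes, known HIF targets among them, so a higher share is partly given by that choice. The longer motif ACGTGC was found for 50.0% of the 34 genes and 6.68% of all genes. The E-box CACGTG, bound by MYC and related factors, overlaps the core on both strands and was found for 17.6% of the 34 genes and 8.09% of all genes. Gpi1, Tpi1 and Eno2 had no core in their windows. The 250 bases before the start are shown, 5′ to 3′ on the gene's strand, for 5 genes whose levels were lower in Etv2-positive cells and higher in iEtv2 cells, and for Slc16a1, which was lower in iEtv2 cells. Capitals mark the core on either strand. The coordinates are those of RefSeq on GRCm38.p6, and a match is a description of letters, not a binding site.
Bnip3 (chr7:138909507-138909756, minus strand): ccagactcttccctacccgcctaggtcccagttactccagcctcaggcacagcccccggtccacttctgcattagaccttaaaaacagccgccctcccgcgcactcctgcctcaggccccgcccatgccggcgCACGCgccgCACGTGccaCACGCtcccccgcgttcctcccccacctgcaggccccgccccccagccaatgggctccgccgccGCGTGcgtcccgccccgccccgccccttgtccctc
Pdk1 (chr2:71872974-71873223, plus strand): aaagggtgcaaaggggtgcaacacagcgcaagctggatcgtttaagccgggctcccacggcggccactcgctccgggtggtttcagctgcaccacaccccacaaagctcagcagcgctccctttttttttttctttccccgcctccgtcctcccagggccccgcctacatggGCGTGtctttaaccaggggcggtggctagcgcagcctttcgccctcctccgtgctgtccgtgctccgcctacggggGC
Egln3 (chr12:54203875-54204124, minus strand): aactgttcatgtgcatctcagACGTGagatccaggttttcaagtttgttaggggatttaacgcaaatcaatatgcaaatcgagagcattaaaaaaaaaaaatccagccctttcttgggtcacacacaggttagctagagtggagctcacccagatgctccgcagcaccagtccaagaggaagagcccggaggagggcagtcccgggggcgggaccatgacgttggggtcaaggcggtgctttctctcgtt
Pfkfb3 (chr2:11553930-11554179, minus strand): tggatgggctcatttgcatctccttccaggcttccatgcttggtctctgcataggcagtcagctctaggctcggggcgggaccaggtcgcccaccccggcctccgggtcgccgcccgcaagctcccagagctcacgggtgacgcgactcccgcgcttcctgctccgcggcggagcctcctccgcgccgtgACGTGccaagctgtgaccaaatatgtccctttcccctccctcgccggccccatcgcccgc
Pgk1 (chrX:106186850-106187099, plus strand): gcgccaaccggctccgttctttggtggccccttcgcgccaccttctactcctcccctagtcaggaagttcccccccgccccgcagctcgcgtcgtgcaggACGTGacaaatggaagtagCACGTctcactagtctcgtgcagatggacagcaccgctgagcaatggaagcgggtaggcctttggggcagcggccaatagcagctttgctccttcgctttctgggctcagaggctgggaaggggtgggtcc
Slc16a1 (chr3:104638414-104638663, plus strand): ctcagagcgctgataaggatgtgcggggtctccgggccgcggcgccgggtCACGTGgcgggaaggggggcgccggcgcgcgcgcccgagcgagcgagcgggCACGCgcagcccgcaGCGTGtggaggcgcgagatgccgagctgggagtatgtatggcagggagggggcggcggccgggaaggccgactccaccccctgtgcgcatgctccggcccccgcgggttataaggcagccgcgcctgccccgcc
Bnip3 held 5 copies of the core before its start, at positions from -117 to -35, and the capital run of 6 in the Bnip3 and Slc16a1 sequences is the E-box. The capitals that end the Pdk1 sequence open a copy that crosses the start. Egln3 had its only copy at -229.

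Reporter-line libraries held 25045553 to 32777143 counts assigned to genes, and second-set libraries 22406153 to 28184904. The groups differed in the genes used to sort them. Etv2 averaged 89.0 ± 17.0 CPM (counts scaled to a common library size) in SP Etv2-positive and 26.6 ± 1.04 in SP Etv2-negative cells, 58.4 ± 10.3 in DP Etv2-positive and 20.2 ± 2.61 in DP Etv2-negative cells, and 239 ± 10.2 in iEtv2 SP and 93.6 ± 22.4 in WT SP cells (SD, n = 3 each). Pdgfra averaged 40.0 ± 7.75 CPM in WT SP and 318 ± 67.4 in WT DP cells. In the reporter line, nuclear ribosomal RNA took 1.28% of the counts of SP Etv2-negative replicate 2 and 1.17% of SP Etv2-positive replicate 3, and at most 0.338% elsewhere. Each value below is CPM on library sizes scaled by TMM, within 1 set only, because the sets had been counted differently.

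That difference falls on the glycolytic genes. Of all counts, pseudogenes took 12.2 to 14.4% in reporter-line libraries, whereas second-set libraries had 0.549 to 0.636%. Of the 38 genes, 13 had pseudogene copies that share at least 5 windows of 50 bases with their transcripts or carry their symbol, and 14 had under 90% of such windows to themselves. Gapdh, the glyceraldehyde-3-phosphate dehydrogenase gene, had 192 pseudogenes and 18.1% unique windows. In the reporter line its pseudogenes held 96.7 to 97.3% of the counts of gene plus pseudogenes, against 1.26 to 1.72% in the second set. The share in the reporter line was 87.1 to 89.6% for Pgk1, 81.6 to 83.9% for Eno1, 51.3 to 57.6% for Pgam1, 39.9 to 43.3% for Gpi1, 30.4 to 32.5% for Pkm and 13.1 to 22.3% for Bnip3. Among the genes just named, unique windows ranged from 18.1% for Gapdh to 75.4% for Gpi1. Reads that lie in shared stretches cannot be told apart between gene and copies. Each call in the reporter line is given again, where it changed, with gene and pseudogenes summed. Of the 38 genes, 14 are also overlapped by a gene on the other strand, among them Hk1 (by Hk1os), and the counting strand is not given in the sources used here.

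**Figure D1:**
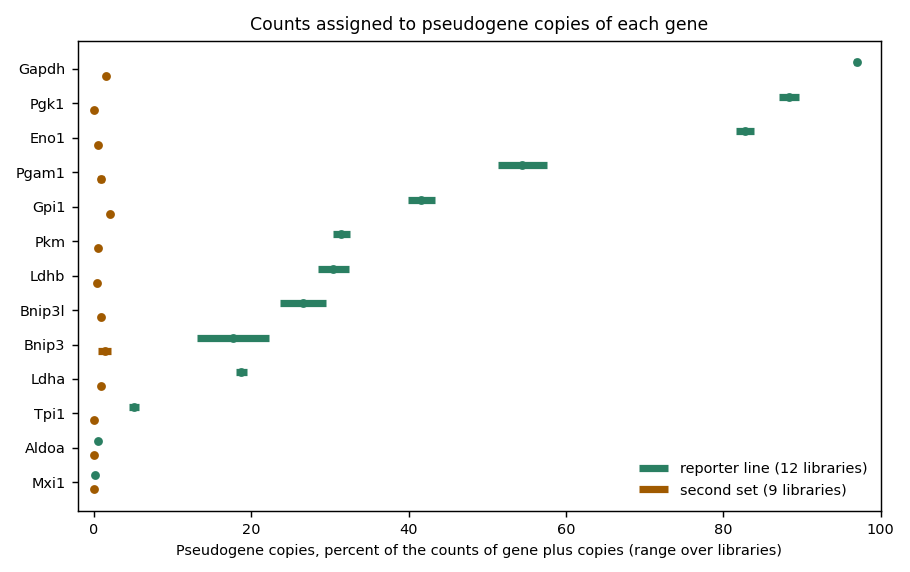
Counts of pseudogene copies as a percentage of gene plus copies, for the 13 genes with pseudogenes; each bar spans the lowest to the highest library of the reporter line (green) or of the second set (brown). Gapdh, Pgk1, Eno1 and Pgam1 were above 50% in all 12 reporter-line libraries, and no gene was above 2.34% in the second set.

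The question of the reporter comparison was how cells positive for the Etv2 reporter differ from cells negative for it. The negative cells held Etv2 transcript too, at means of 26.6 CPM in SP and 20.2 in DP. In both gates the Etv2-positive cells had lower levels of many of the genes. In SP, 22 of 38 genes fell and 1 rose, against a background of 12.4% of 17690 tested genes that fell and 13.1% that rose (25.5% in either direction). In DP, 15 of 38 fell and 1 rose, against 14.7% that fell and 16.0% that rose (30.7% in either direction). The median log2 fold change of the 38 was -0.53 in SP and -0.42 in DP, and that of all tested genes was -0.01 in SP and 0.004 in DP. The groups did not overlap for 21 of the 38 in SP and 16 in DP, against 44.8% and 42.0% of all tested genes. Calls are at a Benjamini-Hochberg adjusted p below 0.05 from edgeR's quasi-likelihood test over all tested genes.

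Libraries of the same replicate number deviated together in these 2 comparisons. With the number as a block, 26 genes fell and 4 rose in SP, against 15.2% and 15.6% of all tested genes, and 23 fell and 4 rose in DP, against 17.0% and 18.1%. Libraries were left out only in the fit without the block. In that fit the SP count rested on a few libraries. It was 8 called genes without SP Etv2-negative replicate 3, 11 without SP Etv2-positive replicate 2 and 12 without SP Etv2-positive replicate 1. The DP count was 10 without DP Etv2-positive replicate 2. Calls over all tested genes in these SP fits were 3232 of 17954, 3315 of 18029 and 3384 of 18027, in the same order. In the DP fit they were 5062 of 18047. With all libraries 4504 of 17690 were called in SP and 5435 of 17690 in DP. Within same-numbered pairs, 27 of 38 genes were lower in the Etv2-positive library in 3 of 3 pairs in SP, and 25 in DP. The corresponding shares of the 15040 genes with at least 1 CPM in 3 libraries were 33.8% and 31.3%.

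**Figure D2:**
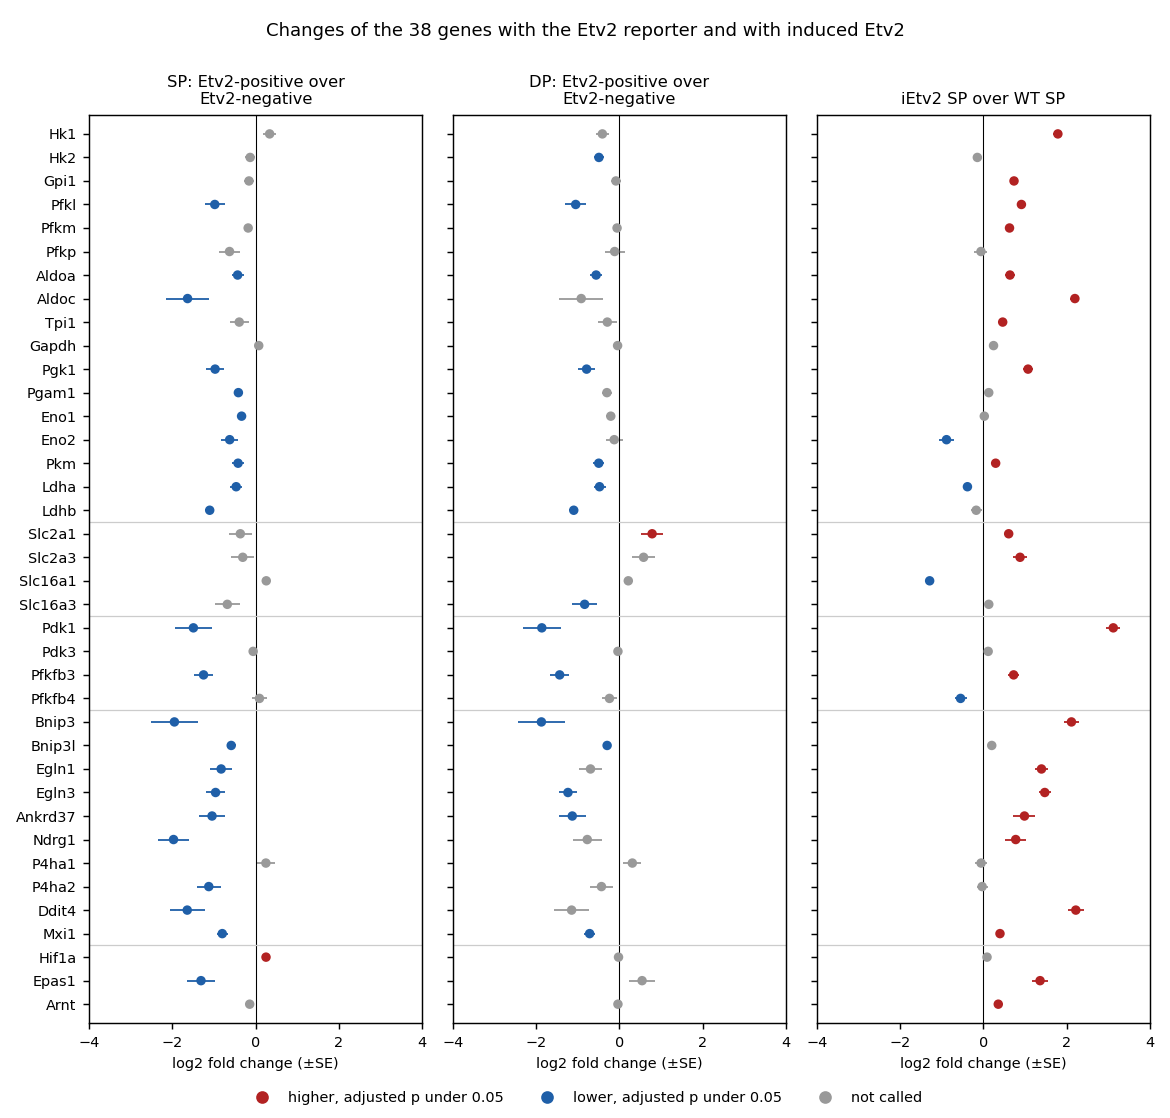
Log2 fold changes (points) with standard errors (bars) of the 38 genes for Etv2-positive over Etv2-negative cells in SP and in DP and for iEtv2 SP over WT SP, in the order enzymes, transporters, flux regulators, hypoxia response and HIF factors (grey lines between). Called genes are red (higher) or blue (lower); most called points lie left of 0 in the reporter comparisons, with 22 and 15 lower, and right of 0 in the induced comparison, with 22 higher.

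Of the 17 enzymes, 10 fell in SP and 7 in DP, and none rose. Phosphofructokinase of the liver type, Pfkl, had 155, 148 and 223 CPM in SP Etv2-positive and 323, 243 and 473 in SP Etv2-negative cells. In DP it had 195, 159 and 231 CPM in Etv2-positive and 430, 290 and 493 in Etv2-negative cells. Each Etv2-positive library was below each Etv2-negative one of its gate (log2 fold change -0.98 ± 0.25, SE, adjusted p = 0.0116 in SP, and -1.05 ± 0.25, adjusted p = 0.00593 in DP). The other phosphofructokinase genes, Pfkm (muscle type) and Pfkp (platelet type), were not called in either gate, with log2 fold changes from -0.63 to -0.06.

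Ldhb, the heart-type lactate dehydrogenase subunit, had 24.0, 29.0 and 23.0 CPM in SP Etv2-positive and 49.1, 55.4 and 58.7 in SP Etv2-negative cells. It had 38.2, 37.3 and 28.1 CPM in DP Etv2-positive and 72.2, 74.2 and 75.3 in DP Etv2-negative cells. The groups were apart in both gates and the replicates close (-1.10 ± 0.12, adjusted p = 5.07e-05 in SP, and -1.10 ± 0.11, adjusted p = 2.13e-05 in DP), and both calls held under all 17 alternatives. Ldha, the muscle-type subunit and a known HIF target, fell less, by 0.47 in SP and 0.48 in DP on the log2 scale. The Ldha calls were lost under 4 of 17 alternatives in SP and 3 in DP, each without 1 library.

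Phosphoglycerate kinase, Pgk1, had 41.5, 44.1 and 62.9 CPM in SP Etv2-positive and 93.2, 71.2 and 128 in SP Etv2-negative cells. It had 60.8, 52.1 and 68.1 CPM in DP Etv2-positive and 114, 80.8 and 119 in DP Etv2-negative cells, again without overlap (-0.97 ± 0.21 and adjusted p = 0.00561 in SP, -0.79 ± 0.21 and adjusted p = 0.0125 in DP). With its pseudogenes added, the level was 399 to 566 CPM in SP Etv2-positive and 551 to 1054 in SP Etv2-negative cells, which overlapped, and the log2 fold change of -0.79 was still called. Aldoc, an aldolase, had 3.76, 3.60 and 8.05 CPM in SP Etv2-positive and 12.6, 8.94 and 26.6 in SP Etv2-negative cells (-1.64 ± 0.52, adjusted p = 0.0352), and each Etv2-positive library was below each Etv2-negative one. The Aldoc call in SP was lost without any of 4 single libraries (SP Etv2-positive replicates 1 and 2 and SP Etv2-negative replicates 1 and 3), with adjusted p up to 0.174 and log2 fold changes from -2.42 to -1.06 over 17 alternatives.

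The most abundant enzyme transcripts fell by less. Aldoa, the main aldolase, fell by 0.43 and 0.56 on the log2 scale in SP and DP, and Pkm, the pyruvate kinase gene, by 0.42 and 0.50. Each lost its SP call under 4 of 17 alternatives, and Pkm its DP call under 3. Eno1, Eno2 and Pgam1 (enolases and phosphoglycerate mutase) fell in SP by 0.34, 0.62 and 0.42, calls that were each lost under 5 of 17 alternatives. With its pseudogenes added, Pgam1 lost its call in SP (-0.29) and gained one in DP (-0.33, adjusted p = 0.0478), and Eno1 lost its SP call with pseudogenes and the coding copy Eno1b added (-0.23). Hk2, the insulin-responsive hexokinase, fell in DP, at 142, 165 and 166 CPM in DP Etv2-positive and 215, 202 and 249 in DP Etv2-negative cells. The difference between the gates was not called for Hk2 (0.36, adjusted p = 0.231). Gpi1 and Tpi1 were not called in either gate, with log2 fold changes from -0.39 to -0.08. With the replicate block Tpi1 fell in both (-0.37 and adjusted p = 0.00498 in SP, -0.27 and adjusted p = 0.0208 in DP). In SP the block added Pfkm (-0.18) and Pfkp (-0.57) as lower and Hk1 (0.33) as higher, and in DP it added Hk1 (-0.41), Aldoc (-0.93), Pgam1 (-0.30) and Eno1 (-0.21) as lower. Gapdh was not called in either gate. With pseudogenes it averaged 3196 ± 151 CPM in SP Etv2-positive and 3274 ± 357 in SP Etv2-negative cells. Its means in DP were 3065 ± 152 in Etv2-positive and 3270 ± 233 in Etv2-negative cells (SD, n = 3 each).

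Of the 4 regulators of flux, 1 of each family fell in both gates. Pdk1 had 13.5, 11.8 and 34.3 CPM in SP Etv2-positive and 51.6, 33.6 and 83.5 in SP Etv2-negative cells. It had 11.0, 9.48 and 22.8 CPM in DP Etv2-positive and 51.1, 34.0 and 74.0 in DP Etv2-negative cells. The groups were apart in DP (-1.87 ± 0.46, adjusted p = 0.00819). In SP the highest Etv2-positive library, replicate 3, lay just above the lowest Etv2-negative one (-1.50 ± 0.45, adjusted p = 0.0279). The Pdk1 call in SP was lost without any of the same 4 libraries as that of Aldoc, with adjusted p up to 0.122 and log2 fold changes from -2.42 to -1.10 over 17 alternatives. Pfkfb3, which makes the activator fructose 2,6-bisphosphate, had 17.0, 17.2 and 21.4 CPM in SP Etv2-positive and 42.6, 30.6 and 59.4 in SP Etv2-negative cells, and 14.5, 15.4 and 18.9 in DP Etv2-positive and 41.8, 33.2 and 57.5 in DP Etv2-negative cells. It was lower without overlap in both gates (-1.25 ± 0.23, adjusted p = 0.00214, and -1.44 ± 0.23, adjusted p = 0.000531). Their relatives Pdk3 and Pfkfb4 were not called in either gate, with log2 fold changes from -0.24 to 0.09, and Pdk3 kept within 36.2 and 40.6 CPM over the 12 libraries.

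Of the 10 hypoxia response genes, 9 fell in SP and 5 in DP. Bnip3 had 5.75, 4.41 and 18.7 CPM in SP Etv2-positive and 31.7, 20.96 and 59.8 in SP Etv2-negative cells, and 7.24, 4.98 and 17.8 in DP Etv2-positive and 35.7, 22.4 and 53.8 in DP Etv2-negative cells. In every group replicate 3 was the highest and replicate 2 the lowest, and the groups did not overlap (-1.95 ± 0.57, adjusted p = 0.0246 in SP, and -1.88 ± 0.57, adjusted p = 0.0239 in DP). The calls were lost without any of 3 libraries in each gate, with adjusted p up to 0.108 in SP and 0.0844 in DP. Bnip3l, its relative in mitochondrial removal, fell by 0.59 in SP and 0.30 in DP. The Bnip3l call in DP was lost under 5 of 17 alternatives, each without 1 library, with adjusted p up to 0.171.

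Egln3, the hydroxylase gene known to respond most to HIF, had 31.7, 29.5 and 41.2 CPM in SP Etv2-positive and 60.2, 48.0 and 91.5 in SP Etv2-negative cells, and 29.8, 25.1 and 31.3 in DP Etv2-positive and 67.2, 52.6 and 84.0 in DP Etv2-negative cells. Both differences were without overlap (-0.96 ± 0.22, adjusted p = 0.00706, and -1.24 ± 0.22, adjusted p = 0.00103). Egln1, the hydroxylase that acts as the main oxygen sensor, fell in SP (-0.83, adjusted p = 0.0379), where the groups overlapped slightly, and had -0.70 in DP (adjusted p = 0.0661). The Egln1 call in SP was lost under 5 of 17 alternatives, DESeq2 among them, with adjusted p up to 0.196. Mxi1, a MAX partner that opposes MYC, fell by 0.80 and 0.72 in SP and DP, and Ankrd37, an ankyrin repeat gene at 1.27 to 5.94 CPM, by 1.05 and 1.13.

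Ndrg1 had 7.002, 4.52 and 6.65 CPM in SP Etv2-positive and 19.2, 15.5 and 36.8 in SP Etv2-negative cells, clear of each other (-1.97 ± 0.37, adjusted p = 0.00244). Ddit4 had 17.3, 21.03 and 39.0 CPM in SP Etv2-positive and 62.9, 49.5 and 130 in SP Etv2-negative cells, also apart (-1.64 ± 0.42, adjusted p = 0.0129). The Ddit4 call was lost under 3 of 17 alternatives, each without 1 library, with adjusted p up to 0.0666. P4ha2, a collagen prolyl hydroxylase subunit, had 21.4, 19.8 and 18.1 CPM in SP Etv2-positive and 37.7, 30.1 and 61.8 in SP Etv2-negative cells (-1.13 ± 0.29, adjusted p = 0.0125). These 3 genes were not called in DP, where their log2 fold changes were -0.77, -1.15 and -0.43, and without the block the difference between the gates was called for none of them. With the block it was called for Ndrg1 (-1.17, adjusted p = 0.00913). With the replicate block Egln1 (-0.66, adjusted p = 0.00116), Ddit4 (-1.12, adjusted p = 1.49e-05) and Ndrg1 (-0.74, adjusted p = 0.00279) fell in DP too. P4ha1, the other prolyl hydroxylase subunit gene, was not called in either gate (0.25 and 0.31). With the block it was higher in both, at 0.27 (adjusted p = 0.0183) in SP and 0.33 (adjusted p = 0.00578) in DP.

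The 4 transporters differed among themselves. Slc2a1, the basal glucose carrier, rose in DP Etv2-positive cells, with 479, 430 and 667 CPM against 266, 204 and 445 in DP Etv2-negative cells. These ranges overlapped by the replicate 3 library of the Etv2-negative cells, each same-numbered pair was higher in the Etv2-positive library, and the call (0.78 ± 0.27, adjusted p = 0.0442) was lost under 6 of 17 alternatives, with adjusted p from 5.12e-28 to 0.169. In SP the values were 377, 290 and 349 CPM in Etv2-positive and 427, 303 and 582 in Etv2-negative cells (-0.37, adjusted p = 0.35). Slc16a3, the lactate exporter, fell in DP, with 136, 96.9 and 175 CPM in DP Etv2-positive and 249, 163 and 318 in DP Etv2-negative cells, which overlapped (-0.84 ± 0.30, adjusted p = 0.0492), and it was lower in 3 of 3 same-numbered pairs in each gate. The DP call was lost under 5 of 17 alternatives, among them DESeq2, with adjusted p up to 0.183. Slc2a3, a glucose carrier of high affinity, and Slc16a1, the monocarboxylate carrier MCT1, were not called in either gate without the block. With it Slc16a3 was lower in SP (-0.64, adjusted p = 0.000107), Slc2a3 was higher in DP (0.64, adjusted p = 0.00701), and Slc16a1 was higher in SP (0.26, adjusted p = 0.00516) and in DP (0.21, adjusted p = 0.0129).

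**Figure D3:**
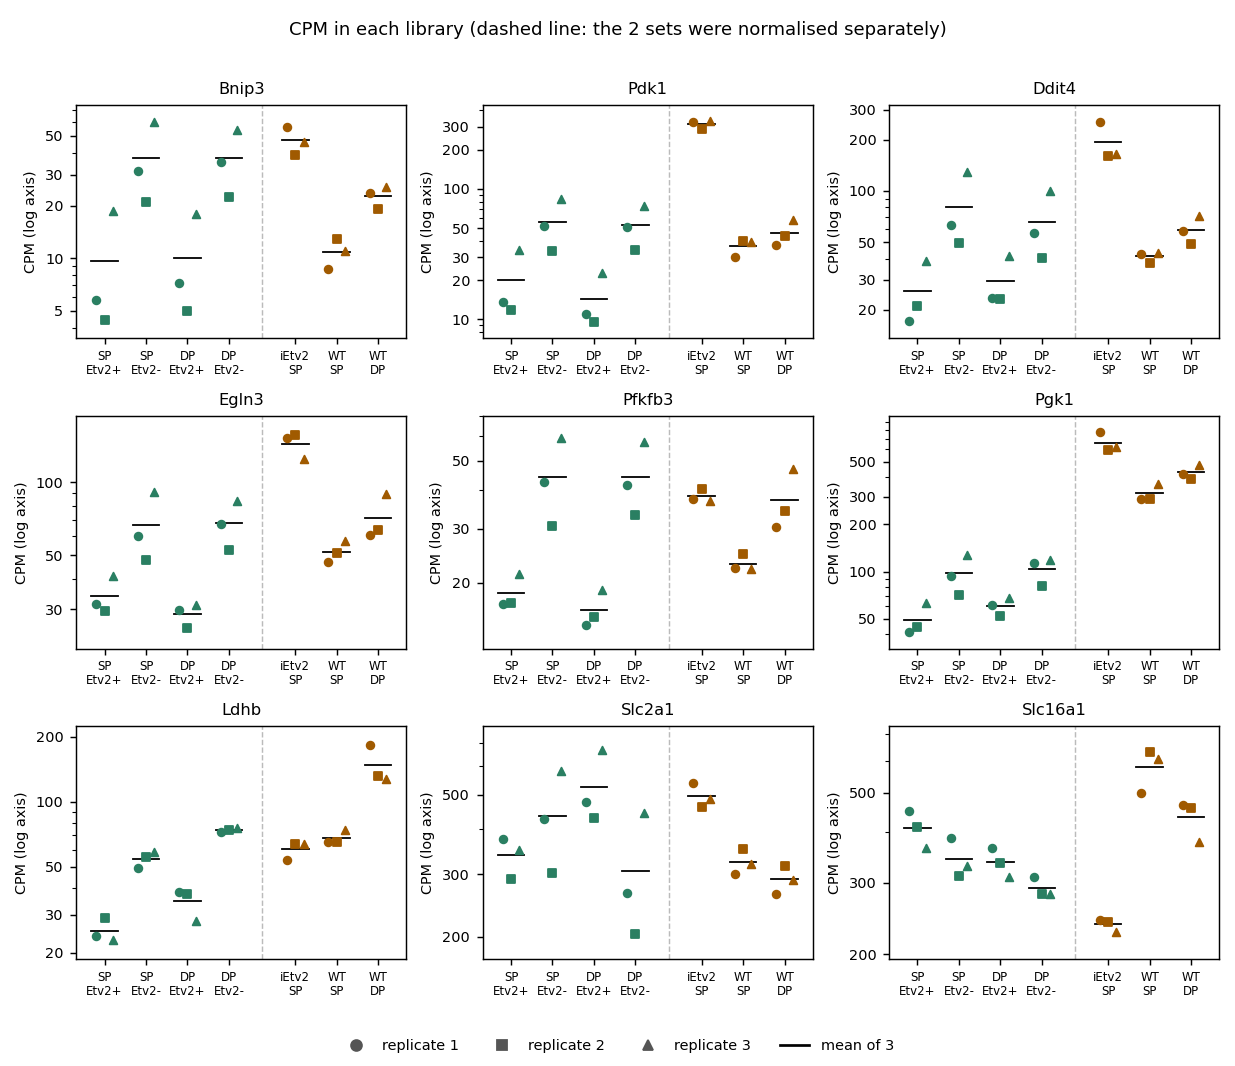
CPM of 9 genes in each of the 21 libraries (log axes that differ between panels); symbols mark the replicate number and lines the mean of 3, with the reporter line left and the second set right of the dashed line. Bnip3, Pdk1, Ddit4, Egln3, Pfkfb3 and Pgk1 have lower means in Etv2-positive than in Etv2-negative cells of both gates and higher means in iEtv2 SP than in WT SP cells; replicate 3 of Bnip3 is the highest in all 4 reporter-line groups.

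Replicate numbers moved with the levels across the reporter line. Of the 38 genes, 19 had their highest value in replicate 3 in all 4 groups, against 5.74% of the 15040 genes with at least 1 CPM in 3 libraries, and 11 had their lowest in replicate 2 in all 4, against 2.69%. None of the 38 was lowest in replicate 3 in all 4 groups, and only Slc16a1 was highest in replicate 1 in all 4. The summed level of the 10 hypoxia response genes was 394, 379 and 480 CPM in SP Etv2-positive and 618, 498 and 921 in SP Etv2-negative cells. It was 417, 367 and 489 CPM in DP Etv2-positive and 588, 461 and 784 in DP Etv2-negative cells. Every Etv2-positive library was below its same-numbered partner. What differed between the numbered replicates is not given in the labels.

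**Figure D4:**
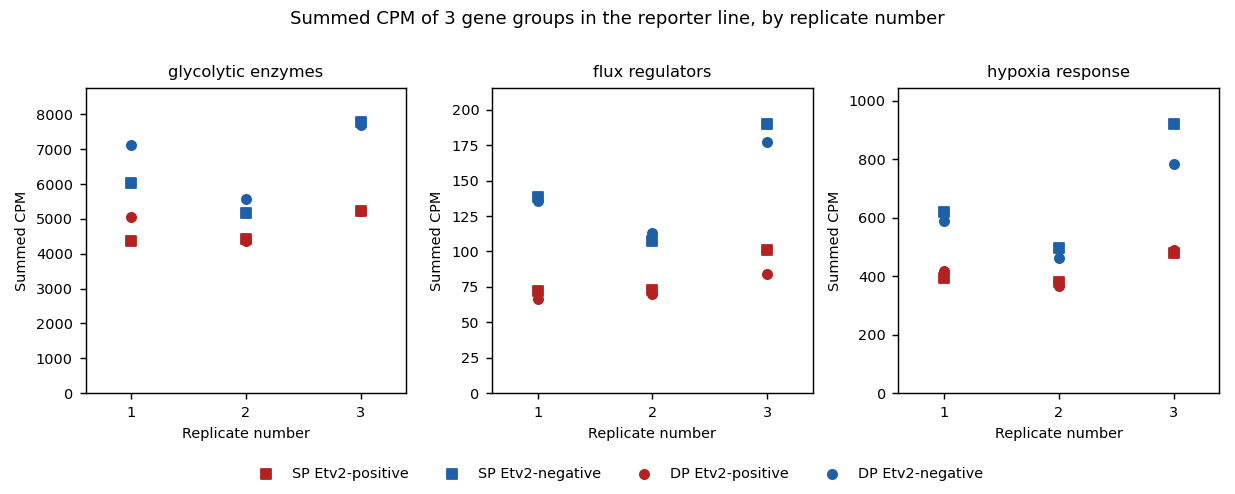
Summed CPM of the 17 enzymes, the 4 flux regulators and the 10 hypoxia response genes in the reporter-line libraries against replicate number; red symbols are Etv2-positive and blue Etv2-negative, squares SP and circles DP. At each number the blue symbols lie above the red ones in all 3 panels, and the blue symbols of replicate 3 are the highest.

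Induced Etv2 went with the opposite direction for much of the set. In iEtv2 SP over WT SP cells, 22 of the 38 genes rose and 4 fell, against a background of 26.4% of 16288 tested genes that rose and 24.4% that fell (50.8% in either direction). The median log2 fold change was 0.43 for the 38 genes and 0.002 for all tested genes. The groups did not overlap for 29 of the 38, against 60.4%. Of the 26 calls, 24 held under every one of 16 alternatives, the exceptions being Pkm and Ndrg1.

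Pdk1 had 325, 288 and 334 CPM in iEtv2 SP and 30.2, 39.7 and 38.9 in WT SP cells, an 8.71-fold higher level (log2 fold change 3.12 ± 0.16, adjusted p = 1.83e-07). Ddit4 had 253, 160 and 163 CPM in iEtv2 SP and 42.6, 37.9 and 43.1 in WT SP cells (2.22 ± 0.19, adjusted p = 3.95e-06). Bnip3 had 56.6, 39.1 and 46.2 CPM in iEtv2 SP and 8.64, 13.0 and 11.0 in WT SP cells (2.12 ± 0.18, adjusted p = 4.04e-06). Every induced library was above every WT SP library for these 3 genes. Egln3 had 151, 156 and 125 CPM in iEtv2 SP and 46.9, 51.1 and 57.2 in WT SP cells (1.48 ± 0.15, adjusted p = 1.41e-05). Egln1 had 190, 156 and 158 CPM in iEtv2 SP and 56.6, 62.4 and 72.1 in WT SP cells (1.40 ± 0.16, adjusted p = 3.31e-05). Of the hypoxia response genes, Ankrd37, Ndrg1 and Mxi1 rose by 0.99, 0.78 and 0.40, and Bnip3l, P4ha1 and P4ha2 were not called, with log2 fold changes from -0.05 to 0.20.

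Of the enzymes, 9 rose and 2 fell. Aldoc had 44.9, 35.8 and 37.8 CPM in iEtv2 SP and 8.68, 8.29 and 8.79 in WT SP cells (2.20 ± 0.11, adjusted p = 1.32e-07). Hk1, the hexokinase bound to mitochondria in most tissues, had 127, 110 and 107 CPM in iEtv2 SP and 38.1, 30.9 and 30.3 in WT SP cells (1.79 ± 0.11, adjusted p = 5.12e-07). All induced libraries were above all WT SP libraries for both genes. Pgk1 rose by 1.08, Pfkl by 0.92, Gpi1 (glucose-6-phosphate isomerase) by 0.74, Aldoa by 0.64, Pfkm by 0.63, Tpi1 (triosephosphate isomerase) by 0.47 and Pkm by 0.30. The enzymes that fell were Eno2, the neuronal enolase, at 1.76, 2.10 and 1.69 CPM in iEtv2 SP and 3.53, 3.23 and 3.48 in WT SP cells, and Ldha, at 1549, 1464 and 1378 in iEtv2 SP and 1820, 1779 and 2119 in WT SP cells. Ldha was thus lower in iEtv2 cells as it was in Etv2-positive cells, and its log2 fold change was -0.38 (adjusted p = 0.00321).

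Both glucose carriers rose with induced Etv2. Slc2a3 had 933, 717 and 807 CPM in iEtv2 SP and 399, 538 and 396 in WT SP cells (0.88 ± 0.17, adjusted p = 0.00157), and Slc2a1 rose by 0.61. Slc16a1 went the other way, with 243, 240 and 227 CPM in iEtv2 SP and 500, 631 and 606 in WT SP cells (-1.29 ± 0.10, adjusted p = 3.14e-06), while Slc16a3 was not called (0.13). Among the flux regulators Pfkfb3 rose by 0.73, Pfkfb4 fell by 0.55 and Pdk3 was not called (0.12).

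Set side by side, 13 genes were lower in both gates with the reporter, against 6.99% of tested genes. Of these 13, 10 were higher with induced Etv2 (Pfkl, Aldoa, Pgk1, Pkm, Pdk1, Pfkfb3, Bnip3, Egln3, Ankrd37 and Mxi1), 1 was lower (Ldha) and 2 were not called (Ldhb and Bnip3l). Among the 10, Pgk1, Pfkfb3, Egln3 and Mxi1 kept all 3 calls under every alternative. Pfkl, Aldoa, Pkm, Pdk1, Bnip3 and Ankrd37 each lost at least their SP call under some alternatives that left out a library. Being lower in both gates and higher with induced Etv2 held for 3.12% of the 15354 genes tested in both sets, and the mirror of that pattern for 3.39%. These 3 comparisons share no library. The reporter comparisons of SP and DP are not independent, though, since they come from the same fit and their same-numbered libraries deviated together. A further 5 genes were lower in 1 gate and higher with induced Etv2 (Aldoc, Egln1, Ndrg1, Ddit4 and Epas1). Pfkp, Gapdh, Pdk3 and P4ha1 were called in none of the 7 comparisons without the block, though Pfkp and P4ha1 were called in some without the filter on low counts, and Pfkp also in some with libraries left out. Gapdh with induced Etv2 lay near the threshold (0.25, adjusted p = 0.0555) and was called under alternatives that included DESeq2 (adjusted p = 0.0402) and the replicate block (adjusted p = 0.0177).

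Markers of other cell types moved with the same groups, and their part in these results was not tested. Among all tested genes 12.4% fell and 13.1% rose in SP, and 14.7% fell and 16.0% rose in DP. With induced Etv2 24.4% fell and 26.4% rose. Pluripotency genes were lower for 7 of 9 tested of 10 in SP and 4 of 9 in DP. Their summed level was 69.5 to 134 CPM in SP Etv2-positive and 181 to 364 in SP Etv2-negative cells, 108 to 254 in DP Etv2-positive and 474 to 821 in DP Etv2-negative cells. In iEtv2 SP cells 7 of 10 rose and 1 fell, with sums of 451 to 524 CPM against 305 to 473 in WT SP cells, which overlapped. Pou5f1, the pluripotency factor Oct4, averaged 176 ± 24.2 CPM in iEtv2 SP and 29.8 ± 5.91 in WT SP cells, and 25.9 ± 4.79 in SP Etv2-positive and 60.5 ± 13.2 in SP Etv2-negative cells (SD, n = 3 each). Paraxial mesoderm genes were lower for 6 of 9 and higher for 1 in SP. Their sums were 12.8 to 17.1 CPM in SP Etv2-positive and 44.7 to 70.1 in SP Etv2-negative cells. In DP they were lower for 8 of 9 and higher for 1, with 21.4 to 38.6 CPM in Etv2-positive and 188 to 251 in Etv2-negative cells. With induced Etv2 6 of 9 fell and 2 rose, with sums of 27.4 to 34.2 CPM in iEtv2 SP and 46.6 to 70.95 in WT SP cells. Endothelial and blood genes rose for 11 of 11 in SP and 8 of 11 in DP. With induced Etv2 8 of 11 rose and 3 fell (Gfi1b, Runx1 and Gata1, factors of blood development), and their sums were 1621 to 1988 CPM in iEtv2 SP and 415 to 505 in WT SP cells. Fibroblast genes, listed because the stem cells were kept on feeders before differentiation, summed to 431 to 671 CPM in DP Etv2-positive and 103 to 232 in DP Etv2-negative cells, and to 121 to 161 CPM in iEtv2 SP and 256 to 363 in WT SP cells, where 2 of 6 tested rose and 1 fell. Primitive erythroid genes summed to 6.38 to 23.7 CPM in SP Etv2-positive and 0.975 to 2.42 in SP Etv2-negative cells. In iEtv2 SP cells both tested genes of that list fell, with sums of 1.41 to 2.42 CPM, against 3.78 to 10.05 in WT SP cells. None of these markers was at 0 in all reporter-line libraries, and Lum and S100a4 of the fibroblast list were at 0 in all 9 libraries of the second set. In bulk samples, fewer cells of a type and less RNA per cell cannot be told apart.

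Between the gates, the share of the 38 genes called was below that of all tested genes in Etv2-negative cells. In Etv2-positive cells the shares were near each other, and in WT cells that of the 38 genes was somewhat higher. In Etv2-negative cells 1 of 38 fell in SP and none rose, against 4.84% and 6.1% of tested genes (10.9% in either direction). That gene was Ldhb, with 49.1, 55.4 and 58.7 CPM in SP Etv2-negative and 72.2, 74.2 and 75.3 in DP Etv2-negative cells (-0.44 ± 0.11, adjusted p = 0.0229). The call was lost under 5 of 17 alternatives, with adjusted p from 3.23e-06 to 0.0964. For 2 of the 38 genes the groups did not overlap, against 32.1% of tested genes.

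In Etv2-positive cells 3 genes rose and 2 fell in SP over DP, against 6.95% and 6.94% of tested genes (13.9% in either direction). The groups did not overlap for 8 of the 38, against 32.4%. Hk1 had 21.5, 24.2 and 34.3 CPM in SP Etv2-positive and 16.9, 19.0 and 19.3 in DP Etv2-positive cells (0.54 ± 0.15, adjusted p = 0.0328). Hk2 had 197, 204 and 233 CPM in SP Etv2-positive and 142, 165 and 166 in DP Etv2-positive cells (0.42 ± 0.11, adjusted p = 0.0281). Both hexokinases were higher in SP without overlap. Ldhb had 24.0, 29.0 and 23.0 CPM in SP Etv2-positive and 38.2, 37.3 and 28.1 in DP Etv2-positive cells, which overlapped slightly (-0.45 ± 0.12, adjusted p = 0.0236). Hif1a rose and Epas1 fell, with the values given with the HIF factors. Apart from Epas1, each of these calls was lost under 4 to 6 of 17 alternatives, including without both libraries of high ribosomal RNA share.

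In WT cells 2 genes rose and 6 fell in SP over DP, against 9.08% and 6.76% of tested genes (15.8% in either direction), and the groups did not overlap for 18 of 38, against 32.1%. Ldhb had 65.2, 65.1 and 73.8 CPM in WT SP and 184, 132 and 128 in WT DP cells (-1.12 ± 0.13, adjusted p = 0.000347). Bnip3 had 8.64, 13.0 and 11.0 CPM in WT SP and 23.7, 19.2 and 25.5 in WT DP cells (-1.07 ± 0.18, adjusted p = 0.00239). Pfkfb3 had 22.4, 24.7 and 22.1 CPM in WT SP and 30.3, 34.2 and 46.8 in WT DP cells (-0.68 ± 0.14, adjusted p = 0.00759). For these genes every SP library was below every DP library, and the 3 calls and that of Pfkl (-0.47) held under all 16 alternatives. Pgk1 fell by 0.45 and Mxi1 by 0.43. Slc2a3 had 399, 538 and 396 CPM in WT SP and 268, 368 and 231 in WT DP cells (0.62 ± 0.17, adjusted p = 0.0348). Slc16a1 had 500, 631 and 606 CPM in WT SP and 467, 459 and 378 in WT DP cells (0.41 ± 0.10, adjusted p = 0.0195). Both carriers were higher in SP without overlap. The count of called genes among the 38 was 4 without WT DP replicate 3, 5 without WT SP replicate 1 and 4 without WT SP replicate 2. Over all tested genes 1525 of 16709, 1509 of 16732 and 2265 of 16708 were called in these fits, against 2580 of 16288 with all libraries. Ldhb was the only one of the 38 genes lower in SP in all 3 gate comparisons, of which 2 share no library with the WT comparison, and the sizes were not compared by a test.

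The reporter effect differed between the gates for 1 of the 38 genes, against 3.97% of tested genes in either direction, with 1.52% higher and 2.45% lower. With the replicate block 6 of 38 were called, against 8.69% of tested genes (3.49% higher and 5.2% lower). Beside Epas1 (-1.88) these were Slc2a1 (-1.14, adjusted p = 0.00402), Ndrg1 (-1.17, adjusted p = 0.00913), Slc2a3 (-0.90, adjusted p = 0.0254) and Aldoc (-0.69, adjusted p = 0.0323), all lower in SP relative to DP, and Hk1 (0.74, adjusted p = 0.00996), which was higher. Epas1, which encodes HIF-2alpha, a subunit known for its role in endothelium, had 6.82, 6.31 and 6.20 CPM in SP Etv2-positive and 14.6, 17.2 and 16.2 in SP Etv2-negative cells. It fell there without overlap (-1.31 ± 0.34, adjusted p = 0.0131), a call lost without both libraries of high ribosomal RNA share (adjusted p = 0.0849). In DP it had 12.9, 17.7 and 27.8 CPM in Etv2-positive and 6.62, 12.6 and 20.8 in Etv2-negative cells, which overlapped (0.54 ± 0.32, adjusted p = 0.225). The difference between these effects was -1.86 ± 0.46 (adjusted p = 0.0433), and it was no longer called under 11 of 22 alternatives, each of which left out 1 or 2 libraries, with adjusted p up to 0.134. SP Etv2-positive cells were also below DP Etv2-positive cells (-1.60 ± 0.34, adjusted p = 0.00893), a call that held under all 17 alternatives. With induced Etv2, Epas1 had 26.5, 35.1 and 30.0 CPM in iEtv2 SP and 11.7, 14.0 and 9.85 in WT SP cells (1.36 ± 0.20, adjusted p = 0.000187).

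Hif1a had 229, 220 and 232 CPM in SP Etv2-positive and 195, 198 and 180 in SP Etv2-negative cells, a small rise without overlap (0.25 ± 0.06, adjusted p = 0.00974) that was lost under 2 of 17 alternatives. It was also higher in SP Etv2-positive than in DP Etv2-positive cells, which had 180, 198 and 199 CPM (0.24 ± 0.06, adjusted p = 0.0207), and it was not called in DP (-0.02), between WT gates (0.07) or with induced Etv2 (0.09). Arnt, the shared partner subunit, was called with induced Etv2 only, at 95.1, 92.3 and 89.8 CPM in iEtv2 SP and 70.3, 76.4 and 69.2 in WT SP cells (0.36 ± 0.07, adjusted p = 0.00159).

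**Figure D5:**
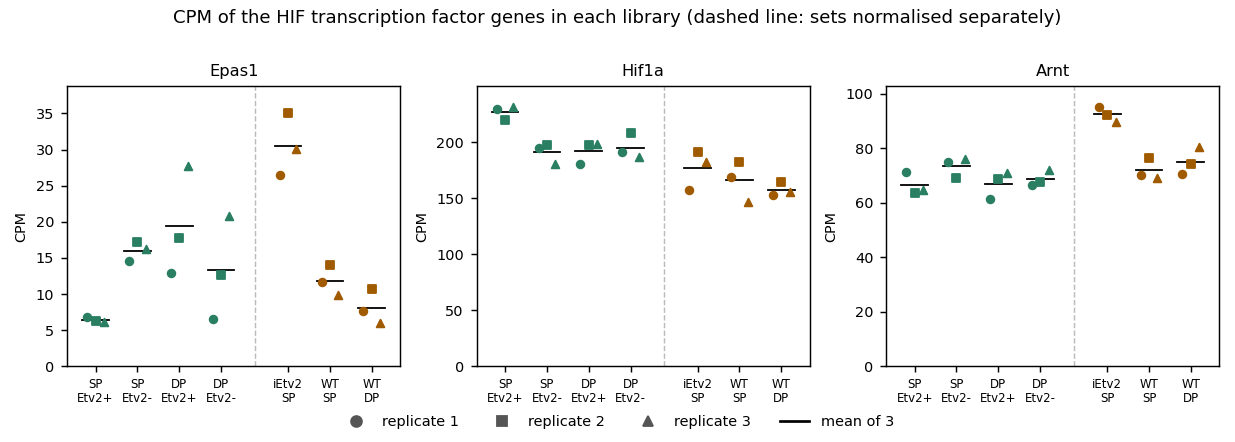
CPM of Epas1, Hif1a and Arnt in each of the 21 libraries (linear axes from 0), with symbols for the replicate number, lines for the mean of 3 and a dashed line between the sets. The 3 SP Etv2-positive libraries of Epas1 lie at 6.20 to 6.82 CPM, below the 3 SP Etv2-negative libraries at 14.6 to 17.2, and the 3 iEtv2 SP libraries at 26.5 to 35.1 lie above the 3 WT SP libraries at 9.85 to 14.0.

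Levels of isozymes can be compared per kilobase of exon within a set. Hk2 was the more abundant hexokinase in every group, and the gap was smaller in iEtv2 SP cells. Hk1 averaged 13.5 ± 1.31 CPM per kilobase there and 3.88 ± 0.51 in WT SP cells, and Hk2 averaged 38.3 ± 2.22 in iEtv2 SP and 42.3 ± 1.57 in WT SP cells (SD, n = 3 each). Aldoa stood far above Aldoc, at 591 ± 88.2 and 12.1 ± 1.46 CPM per kilobase in iEtv2 SP and 379 ± 41.5 and 2.63 ± 0.08 in WT SP cells. For the pyruvate dehydrogenase kinases the order changed. Pdk3 averaged 15.6 ± 0.93 and Pdk1 40.6 ± 3.16 CPM per kilobase in iEtv2 SP, and Pdk3 14.4 ± 0.42 and Pdk1 4.66 ± 0.68 in WT SP cells. In the reporter line Pdk1 stayed below Pdk3 in the mean of all 4 groups, at 2.55 ± 1.61 and 14.6 ± 0.38 in SP Etv2-positive and 7.23 ± 3.25 and 15.2 ± 0.64 in SP Etv2-negative cells. Ldha exceeded Ldhb in every group, at 263 ± 21.5 and 16.1 ± 2.04 CPM per kilobase in SP Etv2-positive and 364 ± 70.6 and 34.6 ± 3.10 in SP Etv2-negative cells, without the pseudogene counts.

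A further 24 HIF targets outside the 38, of which 23 were tested in the reporter line, were counted in the same way. The shares of all tested genes were 12.4% lower and 13.1% higher in SP, and 14.7% lower and 16.0% higher in DP. They were 26.4% higher and 24.4% lower with induced Etv2, and 9.08% higher and 6.76% lower in WT SP over WT DP cells. In SP 11 of 23 fell and 2 rose, and in DP 4 of 23 fell and 1 rose, with medians of -0.46 and -0.26 on the log2 scale. In iEtv2 SP cells 15 of 24 rose and 1 fell (median 0.55), and in WT SP over WT DP cells 1 rose and 6 fell. Narf fell in both gates, with means of 15.1 ± 2.73 CPM in SP Etv2-positive and 36.4 ± 8.99 in SP Etv2-negative cells, and Ak4, a mitochondrial adenylate kinase, averaged 17.9 ± 5.87 and 41.5 ± 17.7 CPM in the same groups. The lysyl oxidase homologue Loxl2 fell in SP Etv2-positive cells to 28.4 ± 3.50 CPM, against 67.8 ± 29.7 in SP Etv2-negative cells, and averaged 46.2 ± 6.11 in iEtv2 SP and 19.6 ± 3.59 in WT SP cells (SD, n = 3 each). The exception with induced Etv2 was Vldlr, at 54.0 ± 16.9 CPM in iEtv2 SP and 167 ± 22.7 in WT SP cells.

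Among 12 regulators of HIF activity, 1 rose and 2 fell in SP, 1 rose and 4 fell in DP, and 3 rose and 3 fell with induced Etv2. The shares called among all tested genes were 25.5% in SP, 30.7% in DP and 50.8% with induced Etv2. The counts of this list in SP and with induced Etv2 were near these shares. Hif3a, a HIF subunit whose shorter forms inhibit the others, averaged 8.24 ± 1.16 CPM in SP Etv2-positive and 12.6 ± 1.17 in SP Etv2-negative cells, and 65.8 ± 3.89 in iEtv2 SP and 14.5 ± 2.14 in WT SP cells. Cited2, which competes with HIF alpha for its coactivators, went the other way in both, at 171 ± 7.85 CPM in SP Etv2-positive and 133 ± 9.75 in SP Etv2-negative cells, and 92.8 ± 14.1 in iEtv2 SP and 231 ± 20.8 in WT SP cells. Arnt2, an ARNT relative, averaged 15.1 ± 0.74 CPM in SP Etv2-positive and 19.8 ± 2.54 in SP Etv2-negative cells, and 35.2 ± 4.77 in iEtv2 SP and 14.5 ± 1.43 in WT SP cells (SD, n = 3 each). All 3 genes were called in both comparisons.

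Of 15 genes of pyruvate and lactate handling, 2 rose and 4 fell in SP, 4 rose and 6 fell in DP, and 5 rose and 7 fell with induced Etv2. Among all tested genes 25.5% were called in SP, 30.7% in DP and 50.8% with induced Etv2. Emb, which encodes a chaperone of the SLC16A carriers, averaged 88.6 ± 7.23 CPM in iEtv2 SP and 253 ± 41.0 in WT SP cells. Of 21 tested genes of the pentose phosphate, serine and glycogen branches, 7 rose and 2 fell in each gate. Phgdh, which opens serine synthesis, averaged 36.0 ± 2.93 CPM in DP Etv2-positive and 19.6 ± 0.47 in DP Etv2-negative cells, and Pygl, a glycogen phosphorylase, averaged 9.06 ± 0.61 in SP Etv2-positive and 29.1 ± 9.15 in SP Etv2-negative cells. Pygl averaged 26.6 ± 3.18 CPM in iEtv2 SP and 10.8 ± 0.75 in WT SP cells, so it fell with the reporter and rose with induced Etv2 (SD, n = 3 each).

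Of 12 genes of the MYC network, whose factors also act on glycolytic genes, 4 rose and 6 fell in SP, 2 rose and 6 fell in DP, and 2 rose and 4 fell with induced Etv2. The shares called among all tested genes were 25.5% in SP, 30.7% in DP and 50.8% with induced Etv2. The MYC network was near the last of these shares. Myc rose with the reporter, at 154 ± 2.81 CPM in SP Etv2-positive and 119 ± 11.0 in SP Etv2-negative cells. In DP it averaged 116 ± 15.4 CPM in Etv2-positive and 80.1 ± 3.96 in Etv2-negative cells. It fell with induced Etv2, at 51.1 ± 11.2 CPM in iEtv2 SP and 182 ± 25.9 in WT SP cells (SD, n = 3 each). The called direction of Myc was thus opposite to that of the 10 genes above in all 3 comparisons. Other genes of the list had the direction of the 10 genes with the reporter. Mycl fell in both gates, with log2 fold changes of -0.79 in SP and -1.51 in DP, and so did Mxd4 (-0.82 and -0.43). The part of the MYC network was not tested. Of 8 stress targets of ATF4, 1 fell in SP, 4 rose and 1 fell in DP, and 3 rose and 2 fell with induced Etv2. Of 10 dissociation and heat stress genes, 3 rose in each of these comparisons and 1 fell in DP. Of 12 cell cycle genes, 6 rose in SP, 3 rose and 2 fell in DP, and 1 rose and 4 fell with induced Etv2. The last of these counts was below the 50.8% of all tested genes called there. Of 12 further isozyme genes of glycolysis, 7 were tested in the reporter line, where 1 rose in SP and 1 rose and 2 fell in DP, and 4 of 8 tested fell with induced Etv2. Pgk2, the testis form, was at 0 counts in all 21 libraries.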

How the data were processed

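RNA was extracted with RNeasy and libraries made with the TruSeq Stranded Total RNA kit, per the labels' protocols. The deposited values are raw read counts per Ensembl gene, 1 table for the reporter line and 9 files for the second set. Featurecounts and mm10 are named in the submitters' processing notes. The aligner, the tool versions and the counting strand are not given in the sources used here. In the 9 files, summary entries (unmapped, multimapping, no feature, ambiguous) were left out of library sizes. Gene names came from GENCODE M21, for 55227 of 55487 IDs.

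The sets were fitted separately with edgeR 4.0.16 in R 4.3.3 (TMM, filterByExpr, quasi-likelihood test, 1 term per group, Benjamini-Hochberg adjustment over all tested genes, calls below 0.05). The fit was tested on simulated data. Values in every library are given, per comparison, for up to 8 called genes of the largest change with a mean of at least 5 CPM. The genes and lists were chosen with earlier results of these data known. A count of 0 allows up to 3 counts, or 0.0915 to 0.134 CPM, counting error only. Alternatives were other scalings and filters, DESeq2 1.42.0, a replicate block, summed copies, only the compared groups and libraries left out.

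Same-numbered libraries counted as pairs if all their correlations of deviations from group means exceeded 0.1. It was 0.143 to 0.268 for the reporter in SP and 0.175 to 0.342 in DP. The number comes from the sample titles.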

Additional observations from a re-analysis of the deposited data

Results flagged for a closer look

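The reporter effect on Epas1 differed between the gates by a test of the difference itself, at -1.86 on the log2 scale (SP minus DP; edgeR's quasi-likelihood test, adjusted p = 0.0433). All 3 SP Etv2-positive libraries were below all 3 SP Etv2-negative libraries, and in DP 3 of 3 same-numbered pairs were higher in the Etv2-positive library. The Epas1 call was lost under 11 of 22 alternatives, each of which left out 1 or 2 libraries, with adjusted p up to 0.134. Without the replicate block no other of the 38 genes was called for this difference, against 3.97% of tested genes. With it Hk1, Aldoc, Slc2a1, Slc2a3 and Ndrg1 were called too, against 8.69% of tested genes.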

How the results depend on the processing

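No fold change of a called gene changed sign under any alternative run. The counts of called genes among the 38 moved by over 1.5 times in these cases. Without the filter on low counts they were 29 for the reporter in DP, 12 for SP over DP in Etv2-negative cells, 16 in Etv2-positive cells, 17 in WT cells and 10 for the difference between gates. Over all genes 5495, 2789 and 3128 of 35472, 3138 of 33280 and 1740 of 35472 were called, in the same order. With the replicate block the counts among the 38 were 27, 6, 12, 15 and 6 in that order, and the block changed no other count by as much. Over all genes 6214, 2788 and 3370 of 17690, 3242 of 16288 and 1537 of 17690 were called with it. In the gate comparisons the same-numbered correlations of deviations were all positive (0.077 to 0.342) but not all above 0.1, and with induced Etv2 they were -0.076 to 0.166, so pairing was not assumed there. DESeq2 gave 2 for the difference between gates, and only the compared groups gave 3 in Etv2-positive cells. The calls over all genes there were 1269 of 17690 and 1324 of 16789. Without both libraries of high ribosomal RNA share the counts were 2 in Etv2-negative cells, 2 in Etv2-positive cells and 0 for the difference between gates. Over all genes they were 1478, 1106 and 119 of 17870. Leaving out 1 library gave 8 to 24 for the reporter in SP, 10 to 18 in DP, 0 to 4 and 1 to 4 for the gates in Etv2-negative and Etv2-positive cells, 0 to 3 for the difference between gates, 4 to 10 in WT cells and 24 to 27 for induced Etv2. In the same order, calls over all 17944 to 18047 tested genes of the reporter line were 3232 to 3608, 4022 to 5062, 787 to 2268, 1342 to 2403 and 50 to 1268. Over all 16588 to 16807 tested genes of the second set they were 1509 to 2683 and 6834 to 8058. The cause of these moves was not tested. Calls held under every alternative for 7 of 23 genes for the reporter in SP, 9 of 16 in DP, 4 of 8 in WT cells and 24 of 26 for induced Etv2. Upper-quartile scaling split the calls of all genes into 1800 higher and 2653 lower in SP and 2495 higher and 2931 lower in DP, against 2314 and 2190, and 2827 and 2608. The low levels of Ankrd37 and Eno2 limit their precision.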
